A study of Mus musculus with 30 samples.

Results

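The MHC class I presentation pathway was followed in a mouse glioblastoma model through 10 genes chosen by name: B2m, H2-K1, H2-D1, Tap1, Tap2, Tapbp, Nlrc5, Psmb8, Psmb9 and Psmb10. They are 10 of the 24421 genes listed in the deposited tables. All 10 passed the filter on low values, at least 1 RPM in at least 3 libraries, and were tested with the 15824 genes that passed. RPM here is the deposited normalised count divided by 10.3, a unit of read depth common to all libraries. Polyadenylated RNA had been sequenced from stranded libraries of bulk cortical tissue taken at postnatal day 70, from 28 tumours and 2 samples of normal cortex, with 1 library per sample. The receptor EGFR, a tyrosine kinase often altered in glioblastoma, had been introduced in forms with a single amino acid change in 5 A289I, 4 A289V, 3 R108G, 4 R108K, 3 R222C and 3 T263P tumours. It was the wild-type form (EGFR WT) in 3 tumours, and another 3 tumours are labelled mCherry, a red fluorescent protein, in the field that gives the receptor form. The 2 cortex samples are normal tissue of the same age. The labels give neither the mouse strain nor the way the receptor was delivered, nor other lesions that the tumours may share. They do not say that libraries of a group came from separate animals beyond the number of mice per variant, so p-values measure the spread between these samples.

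MHC class I molecules display peptides from inside a cell to CD8 T cells. A heavy chain, here H2-K1 or H2-D1, pairs with the light chain beta-2-microglobulin (B2m) and holds a peptide cut by the proteasome. The Tap1 and Tap2 proteins form the transporter that carries peptides into the endoplasmic reticulum, and tapasin (Tapbp) bridges that transporter and the empty class I molecule. Psmb8, Psmb9 and Psmb10 are the catalytic subunits of the immunoproteasome and replace Psmb5, Psmb6 and Psmb7 in the constitutive particle. Nlrc5 is the transactivator of class I genes, which lacks a DNA-binding domain of the usual kind and acts through factors bound at the X and Y boxes of their promoters. Neurons of the normal brain carry little class I, and interferons raise the whole pathway.

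The heavy chain and light chain promoters are shown first because they carry the boxes through which Nlrc5 is known to act. RefSeq promoter windows on GRCm38.p6, from 250 bases before to 50 bases after the annotated start, were at hand for 8 of the 10 genes, in 9 windows. In 3 of these genes, the core of the X2 box (TGACG) was followed 20 bases later by the core of the Y box (ATTGG). The stretches of 30 bases are given 5′ to 3′ on the strand of the gene, with both cores in capitals.
B2m: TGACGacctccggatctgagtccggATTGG
H2-K1: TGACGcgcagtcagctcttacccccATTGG
H2-D1: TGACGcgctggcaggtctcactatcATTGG
They lie at chr2:122147609-122147638 on the plus strand for B2m, at chr17:34000359-34000388 on the minus strand for H2-K1 and at chr17:35262993-35263022 on the plus strand for H2-D1. The H2-D1 stretch lies inside the first exon that GENCODE gives for this gene, which starts upstream of the RefSeq start. The spacing was chosen after these sequences had been seen. On either strand, 31 of 32851 promoter windows (0.0944%), of 27 genes, held it. H2-M3, which encodes another class I heavy chain, was among the 27. Most of the 27, among them Per1, Calu and Nasp, are not class I genes. Taken singly, TGACG was in 20.8% and ATTGG in 37.4% of all windows.

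The upstream regions of B2m and H2-K1 are printed whole, since these genes had the highest tumour levels per length and their regions hold no annotated transcript of the gene itself. Capitals mark the spaced X2 and Y cores, the interferon response core TTTCNNTT and the motif of NF-κB, each searched on both strands.
B2m: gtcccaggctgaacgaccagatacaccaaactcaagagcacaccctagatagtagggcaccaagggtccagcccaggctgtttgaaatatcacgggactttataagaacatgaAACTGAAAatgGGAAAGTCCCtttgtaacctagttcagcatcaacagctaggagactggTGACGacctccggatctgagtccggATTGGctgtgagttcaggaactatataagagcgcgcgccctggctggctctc
H2-K1: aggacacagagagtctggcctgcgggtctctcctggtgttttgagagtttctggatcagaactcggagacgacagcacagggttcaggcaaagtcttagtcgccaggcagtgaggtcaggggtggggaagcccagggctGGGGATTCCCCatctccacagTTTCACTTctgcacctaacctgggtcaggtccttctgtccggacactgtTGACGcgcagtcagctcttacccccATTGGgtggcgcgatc
The B2m region is chr2:122147437-122147685 on the plus strand and the H2-K1 region chr17:34000348-34000597 on the minus strand. In both regions the NF-κB motif and the interferon core stood upstream of the X2 and Y cores, the interferon core before the NF-κB motif in B2m and after it in H2-K1. The NF-κB motif and the interferon core were also found in the H2-D1 window and in none of the other 5 genes' windows. Among all windows, 23.9% held the interferon core and 4.50% the NF-κB motif. The gamma activated site TTCNNNGAA was found in the window of Psmb8 alone among the 8 genes, and in 8.30% of all windows. The letters describe these windows and do not show that a factor was bound.

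On mm10 with GENCODE release M21, 7 of the 10 genes lie on chromosome 17, within 1.35 Mb between the start of Tapbp and the end of H2-D1. Psmb9, Tap1, Psmb8 and Tap2 stand together there in 34.3 kb. Psmb9 (chr17:34181987-34187764, minus strand) and Tap1 (chr17:34187553-34197225, plus strand) overlap by 212 bases. The libraries were stranded, but the strand setting of the counting is not given in the sources used here, so reads in that overlap could have been shared. H2-K1 (chr17:33996017-34000347) and H2-D1 (chr17:35262730-35267499) share 8.11% and 14.3% of their 50-base words with other genes, among them H2-Q1. That share makes their levels uncertain but does not measure how far they are off. The labels give no strain, and H2 alleles that differ from the reference could also lower the reads counted for both genes. Words shared with other genes were at most 2.0% in each of the other 8 genes. B2m is on chromosome 2 (122147686 to 122153083), and Nlrc5 (94434356 to 94527272) and Psmb10 (105935735 to 105938444) are on chromosome 8.

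Depth was 2784129 to 24475215 recovered reads per library, so 1 read was worth 0.0387 to 0.383 RPM. Mouse Egfr ranged over 17.5 to 2790.0 RPM in the tumours, against 11.3 and 12.7 RPM in cortex. R108G libraries 1 and 3 and T263P library 2 had 17.5, 52.3 and 52.1 RPM of Egfr, near the 22.1 to 35.4 RPM of the mCherry tumours. The labels do not give the species of the introduced sequence. The summed level of 10 neuron markers was 108.1 to 8976 RPM in the tumours, against 10635 and 10969 RPM in cortex, so cortex was neuron-rich and most tumours were not. The numbers in the sample titles fell in 3 ranges, below 20 (7 tumours), 20 to 37 (12 tumours and both cortex samples) and above 37 (9 tumours). All A289I and R108G tumours had numbers above 37.

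Each tumour group was set against normal cortex to ask how far the pathway differed between the tumour and the tissue it grew in. The pathway stood far higher in the tumours, with 1 exception. In all 28 tumours, 9 of the genes, B2m, H2-K1, H2-D1, Tap1, Tap2, Tapbp, Nlrc5, Psmb8 and Psmb9, were above both cortex samples. Over all genes tested, 16% were above both cortex samples in all 28 tumours. Psmb10 was above both cortex samples in 24 of the 28. Fewer cells of a type and less RNA per cell cannot be told apart in these bulk samples, and this holds for every level given here.

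**Figure D1:**
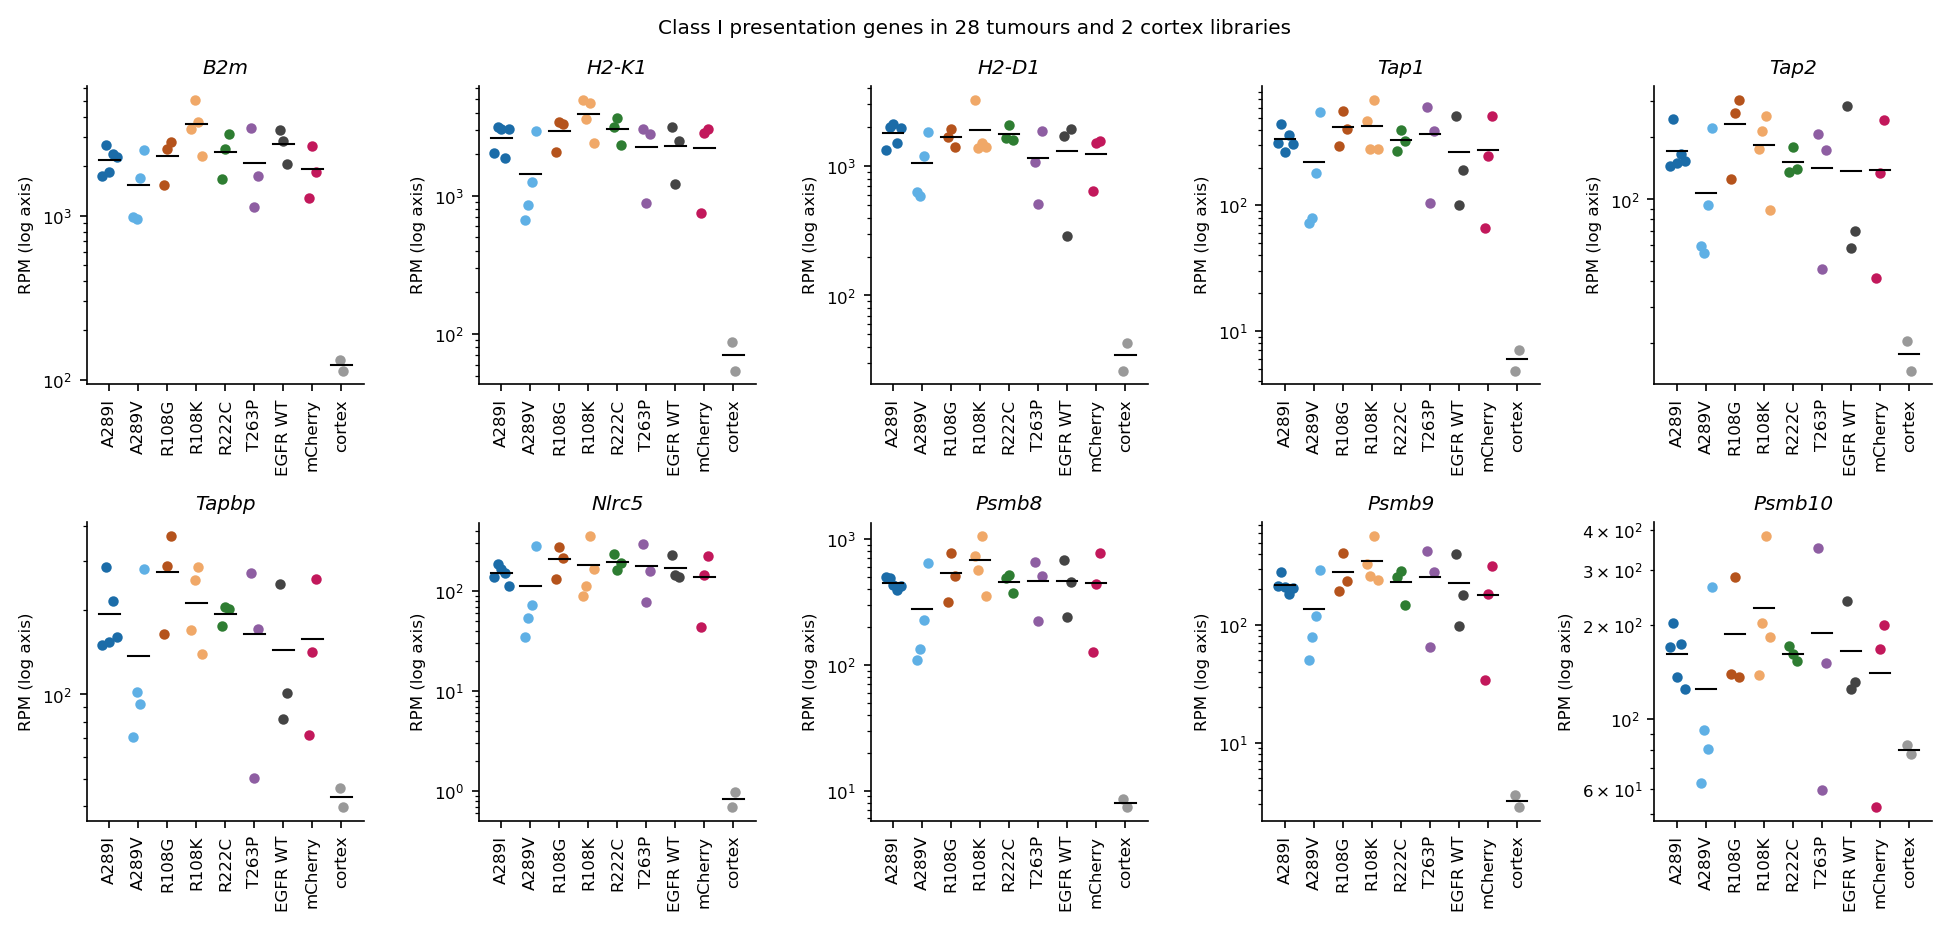
Level of each class I presentation gene in every library, in RPM on a log axis, by group, with 1 point per library and a bar at the group mean. Cortex lies below all tumours for 9 genes. For Psmb10 the lowest tumour, at 52.4 RPM, is below the cortex samples at 77.2 and 82.7 RPM.

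B2m, the light chain of every class I molecule, had 1743, 2701, 1854, 2364 and 2291 RPM in the A289I tumours, 975, 952, 1705 and 2528 RPM in A289V, 1542, 2566 and 2799 RPM in R108G and 3374, 5105, 3732 and 2306 RPM in R108K. It had 1678, 2544 and 3158 RPM in R222C, 3413, 1137 and 1752 RPM in T263P, 3309, 2846 and 2073 RPM in EGFR WT and 1277, 2662 and 1853 RPM in mCherry tumours, against 132 and 113 RPM in cortex. The lowest tumour, A289V library 2, was 7.19-fold above the higher cortex sample while the tumour groups overlapped one another. Tests were run with limma on log2(RPM + 1) across all genes, and p-values were adjusted over the genes of each comparison (Benjamini-Hochberg). In the mCherry tumours the log2 fold change over cortex was 3.91 ± 0.44 (SE, limma adjusted p = 7.37e-07), and over the 8 tumour groups it was 3.52 in A289V to 4.82 in R108K.

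H2-K1, a classical heavy chain, had 2038, 3144, 3057, 1866 and 3019 RPM in A289I, 670.1, 857, 1256 and 2941 RPM in A289V, 2088, 3404 and 3305 RPM in R108G and 4963, 3605, 4655 and 2395 RPM in R108K tumours. It had 3120, 3651 and 2331 RPM in R222C, 3038, 889 and 2786 RPM in T263P, 3163, 1208 and 2477 RPM in EGFR WT and 747, 2838 and 3058 RPM in mCherry tumours, against 87.7 and 54.0 RPM in cortex. Within A289V, T263P, EGFR WT and mCherry, 1 to 3 tumours lay well under the others, and none of the ranges touched cortex. The log2 fold change of mCherry tumours over cortex was 4.74 ± 0.60 (SE, limma adjusted p = 3.4e-06).

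H2-D1, the second classical heavy chain, had 1336, 2024, 2104, 1509 and 1981 RPM in A289I, 627, 588, 1195 and 1824 RPM in A289V, 1680.1, 1946 and 1409.8 RPM in R108G and 3270.4, 1374, 1518 and 1406 RPM in R108K tumours. It had 1659, 2075 and 1603 RPM in R222C, 1079.7, 513 and 1869.7 RPM in T263P, 1703, 287 and 1953 RPM in EGFR WT and 642, 1514 and 1568 RPM in mCherry tumours, against 26.1 and 42.7 RPM in cortex. The single lowest tumour was EGFR WT library 2, whose B2m was well inside the tumour range. The log2 fold change of mCherry tumours over cortex was 5.06 ± 0.63 (SE, limma adjusted p = 2.53e-06).

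The transporter and loading genes differed less evenly. Tap1, the first transporter subunit, was 65.6 to 695 RPM in the tumours, with a median of 313, against 4.81 and 7.07 RPM in cortex. Its partner Tap2 was 41.7 to 305.5 RPM (median 152) against 20.6 and 14.7 RPM, and Tapbp 50.2 to 369 RPM (median 171) against 46.3 and 39.5 RPM. All 3 were above cortex in every tumour, but the lowest tumour exceeded the higher cortex sample by 9.28-fold for Tap1, 2.02-fold for Tap2 and only 1.09-fold for Tapbp. In mCherry tumours the log2 fold change over cortex was 4.90 ± 0.80 for Tap1 (SE, limma adjusted p = 6.46e-05), 2.60 ± 0.71 for Tap2 (adjusted p = 0.00565) and 1.67 ± 0.61 for Tapbp (adjusted p = 0.0324). The call for Tap2 in mCherry tumours ended without cortex sample 2 and with a term for 3 ranges of title numbers. It ended in 3 of 17 alternatives for EGFR WT (adjusted p up to 0.144), cortex sample 2 left out among them, and in 3 of 19 for A289V (up to 0.203), without A289V library 4 or either cortex sample. The call for Tapbp in A289I and R222C ended without cortex sample 2. It ended in 8 of 16 alternatives for mCherry, in 6 of 17 for T263P and in 8 of 17 for EGFR WT, with an adjusted p of up to 0.207 in mCherry, 0.178 in T263P and 0.322 in EGFR WT.

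Nlrc5, the transactivator, had 137, 187, 165, 151 and 113 RPM in A289I, 35.04, 53.7, 72.6 and 284 RPM in A289V, 133, 278 and 216 RPM in R108G and 88.5, 112, 354 and 167 RPM in R108K tumours. It had 233, 162 and 189 RPM in R222C, 297, 77.9 and 158 RPM in T263P, 230.0, 143 and 137 RPM in EGFR WT and 43.4, 145 and 221.8 RPM in mCherry tumours, against 0.688 and 0.990 RPM in cortex. The lowest tumour was 35.4-fold above the higher cortex sample, the widest such gap of the 10 genes. The cortex values rest on few reads, as 1 read was worth 0.172 RPM in cortex sample 1 and 0.141 RPM in sample 2. The size of that gap is therefore imprecise. The log2 fold change of mCherry tumours over cortex was 5.95 ± 0.68 (SE, limma adjusted p = 9.07e-07) on the log2(RPM + 1) scale, which understates the change of a gene this low in cortex.

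The immunoproteasome subunits parted into a pair far above cortex and 1 that was not. Psmb8 was 110.1 to 1054 RPM in the tumours (median 472) against 8.60 and 7.36 RPM in cortex, and Psmb9 34.1 to 567 RPM (median 225) against 3.61 and 2.83 RPM. Their log2 fold changes in mCherry tumours over cortex were 5.29 ± 0.65 (SE, limma adjusted p = 2.49e-06) and 4.92 ± 0.77 (adjusted p = 4.14e-05). Psmb10 had 171, 203, 136, 174 and 125 RPM in A289I, 62.6, 92.2, 80.5 and 264 RPM in A289V, 139, 283 and 136 RPM in R108G and 139, 202, 384 and 183 RPM in R108K tumours. It had 171, 161 and 153 RPM in R222C, 352, 59.7 and 151 RPM in T263P, 237, 125 and 132 RPM in EGFR WT and 52.4, 167 and 199.96 RPM in mCherry tumours, against 82.7 and 77.2 RPM in cortex. Its ranges overlapped cortex in A289V, T263P and mCherry tumours and lay above cortex in the other 5 groups. Over all genes tested, the share with every tumour of a group above both cortex samples was 31.2% in A289I, 28% in A289V, 35.6% in R108G, 29.6% in R108K, 37.1% in R222C, 33.4% in T263P, 33.8% in EGFR WT and 32.7% in mCherry tumours. No limma test of Psmb10 against cortex passed, with log2 fold changes of 0.39 (A289V) to 1.39 (R108K, adjusted p = 0.0527), and it passed in 6 of 18 alternatives for R108K. It also passed in 2 alternatives each for A289I, R108G and R222C (library weights, and only the groups compared), and in 1 each for T263P (without T263P library 2) and EGFR WT (library weights).

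Counted over the pathway, 9 of the 10 genes rose over cortex by the limma test (adjusted p under 0.05) in A289I, R108G, R108K, R222C, T263P, EGFR WT and mCherry tumours, and 8 rose in A289V, where Tapbp (1.43, adjusted p = 0.0941) also missed the threshold. Of all genes tested, the share called in either direction was 40% in A289I, 15.2% in A289V, 37.1% in R108G, 44.4% in R108K, 43.2% in R222C, 41.6% in T263P, 41.1% in EGFR WT and 38.3% in mCherry. The share called higher was 19%, 9.02%, 17.8%, 21.8%, 20.7%, 19.4%, 19.3% and 17.8% in the same order of groups. The median log2 fold change of the 10 genes was 4.31 in A289V to 5.71 in R108K, against 0.00 to 0.06 over all genes. All 8 comparisons share the same 2 cortex samples. The numbers of A289I and R108G do not share a range with cortex. With a term for the ranges of title numbers, 5 of the 10 were called in each (Tap1, Tap2, Tapbp and Psmb9 were lost). Over all genes the terms for 2 and 3 ranges called 513 and 277 in A289I, against 6327 without a term. In R108G they called 423 and 339, against 5871. Only mCherry library 3 links numbers above 37 to lower ones within a group, so the term for A289I and R108G rests on that library. In A289V, leaving out libraries 1 and 2, which had the most neuronal RNA, gave 9 called.

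**Figure D2:**
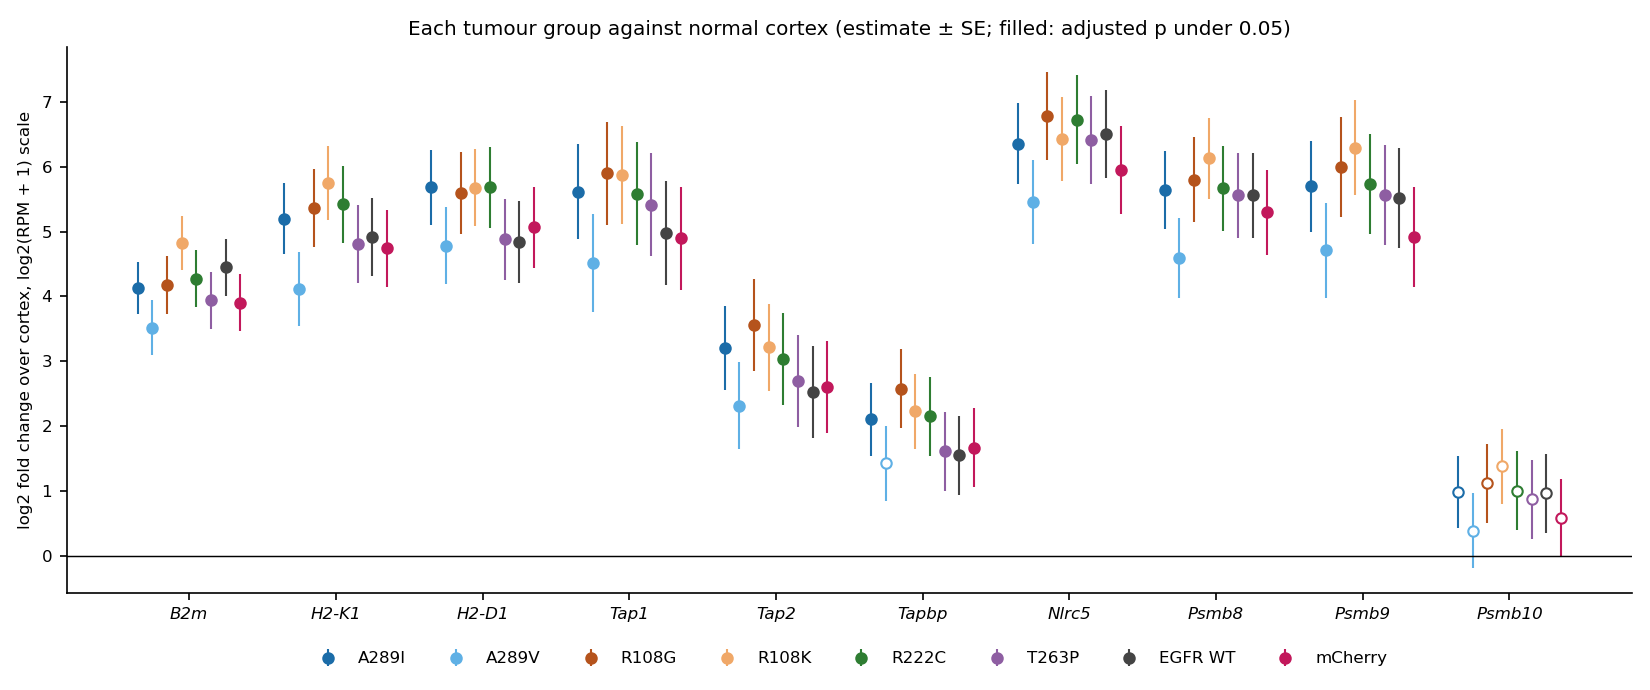
Log2 fold change of each gene in each tumour group over normal cortex, on the log2(RPM + 1) scale, with its standard error. Filled points passed the limma test (adjusted p under 0.05): all but Psmb10 in every group and Tapbp in A289V.

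Compared per length, B2m was the highest of the 10 genes in the tumours, with a median of 2715 RPKM against a mean of 143 RPKM in cortex. H2-K1 followed at 1542 RPKM against 37.8, and H2-D1 at 734 RPKM against 16.4. The proteasome subunits were lower, with tumour medians of 289.8 RPKM for Psmb8, 166 for Psmb9 and 119.7 for Psmb10, against 4.90, 2.38 and 61.0 RPKM in cortex. Tap1 (80.0 RPKM), Tapbp (59.0), Tap2 (44.1) and Nlrc5 (20.4) were the lowest in the tumours, and Nlrc5 had 0.111 RPKM in cortex. Psmb10 was thus the second of the 10 genes in cortex and the sixth in the tumours.

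The balance of immunoproteasome and constitutive subunits was read per length within each library. Psmb8 over Psmb5, the subunits with chymotrypsin-like activity, was 0.595 to 7.38 in the tumours (median 2.42), against 0.0372 and 0.0305 in cortex. Psmb9 over Psmb6 was 0.104 to 1.38 (median 0.502) against 0.0134 and 0.0101. Both ratios were above cortex in all 28 tumours. Psmb10 over Psmb7 was 0.215 to 1.55 (median 0.671) against 0.319 and 0.302, and above both cortex samples in 25 of 28. The denominators moved too. Of the 28 tumours, 24 were at or below the higher cortex sample for Psmb5, 22 for Psmb7 and 4 for Psmb6. No test of the 3 constitutive subunits passed in mCherry tumours over cortex, with limma log2 fold changes of -0.11 for Psmb5, 0.57 for Psmb6 and -0.17 for Psmb7 (adjusted p = 0.151 or higher, 0 of 3 with an unadjusted p under 0.05).

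**Figure D3:**
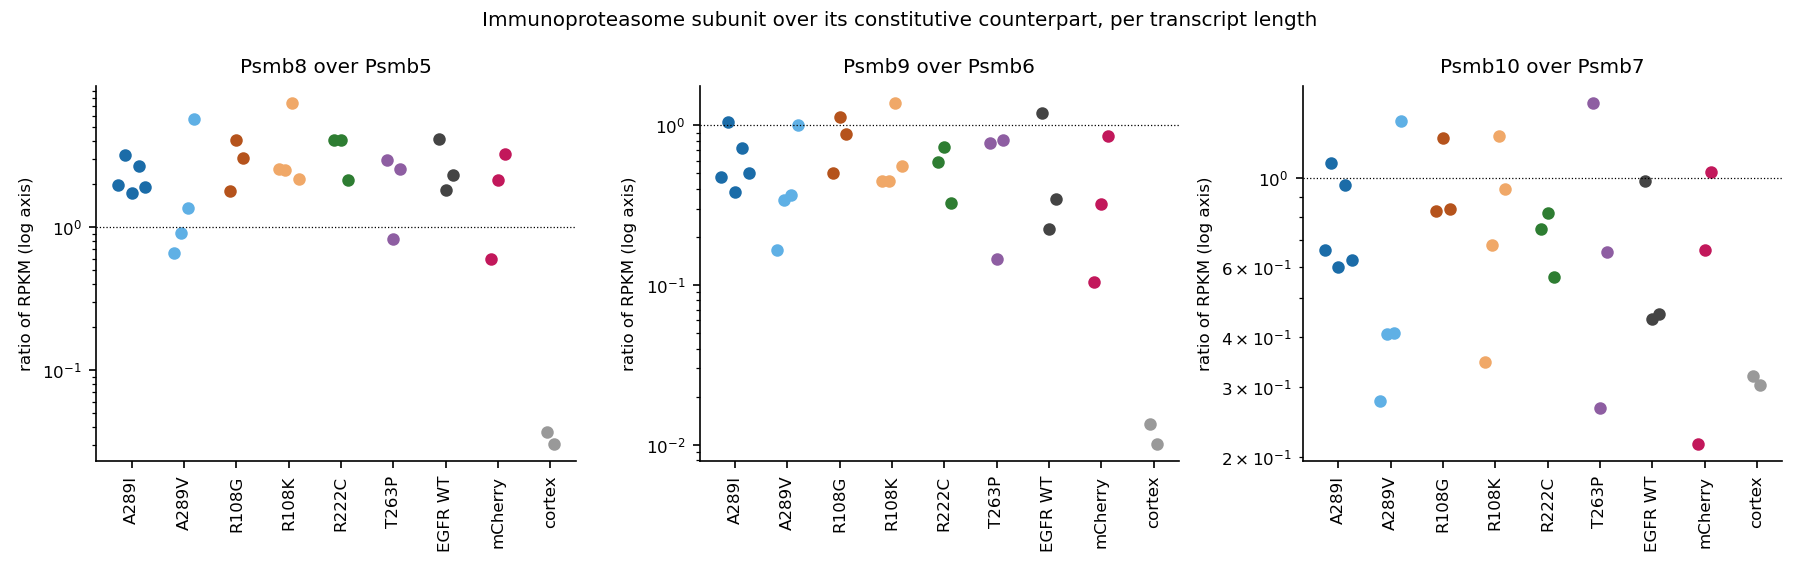
Ratio of each immunoproteasome subunit to its constitutive counterpart, per transcript length on a log axis, with 1 point per library and a dotted line at 1. Psmb8 over Psmb5 and Psmb9 over Psmb6 are above both cortex libraries in all tumours, and Psmb10 over Psmb7 is in 25 of 28.

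Genes around the pathway were read in mCherry tumours over cortex by limma. The background was 38.3% of all genes called in either direction and 17.8% called higher. Of 11 peptide loading helpers, 7 rose and 4 did not pass. They included Erap1, the peptidase that trims peptides in the endoplasmic reticulum (2.72 ± 0.63 SE, adjusted p = 0.00178), the translocon subunit Sec61a1 (1.47), the cytosolic peptidase Lap3 (1.61) and the chaperone Hspa5 (1.07). Of 4 proteasome activator genes, Psme1 (1.48) and Psme2 (2.19), the subunits of the interferon-induced PA28 cap, rose, as did Psme4 (1.43), and Psme3 (0.25) did not pass. Of 11 other subunits of the 20S core, Psmb2 rose (1.04) and 10 did not pass, and the median was 0.44. Medians of the first 2 lists were 0.99 and 1.45, against 0.01 over all genes.

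Other class I and class I-like heavy chains numbered 25 in the list, of which 20 passed the filter. In mCherry tumours over cortex 13 rose, 1 fell and 6 did not pass, with a median log2 fold change of 2.71. H2-T10 (4.50), H2-Q4 (5.26), Cd1d1, which presents lipids (3.99), and H2-Q1 (4.20) had the lowest p-values. The gene that fell was Fcgrt (-1.47), which encodes the neonatal Fc receptor heavy chain and presents no peptide. H2-Q6 and H2-Q7, near-identical copies, are listed at 0 in every library.

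Among 18 transcription factors of class I and class II genes, 11 rose in mCherry tumours over cortex, 1 fell and 6 did not pass (median 1.67). Irf9 (3.52), of the interferon signalling complex, Nfya (2.01), a subunit of the Y box factor, and Irf7 (5.19) were among those with the lowest p-values, and Nfyb (-0.85), another Y box subunit, fell. Of 11 tested interferons, receptors and kinases, 5 rose: Usp18 (5.14) and Socs3 (4.21) and Socs1 (3.14), which damp cytokine signalling, the kinase Jak2 (1.08) and Ifngr1 (0.86). Ifng itself was listed at 0 to 7.51 RPM in the tumours and had no read in cortex (0.89, adjusted p = 0.429). Of 6 class II presentation genes, 4 rose, with Cd74, the invariant chain, at 5.58 and H2-Ab1 at 5.50.

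Genes of immune receptors and immune cells were read in the same comparison. Of 9 tested receptors, 4 rose in mCherry tumours over cortex: Lilrb4a (3.72), Klra2 (3.02), Klrb1c (1.33) and Pirb (1.92). Of all genes tested, 38.3% were called there in either direction and 17.8% were called higher. Cd8a, the co-receptor of class I restricted T cells, had 3.41 ± 3.32 RPM in mCherry tumours (SD, n = 3) and 0.157 ± 0.0216 RPM in cortex (n = 2) and did not pass. Of 6 inhibitory ligands, 3 rose, Lgals9 (3.55), Cd274 (3.62), which encodes PD-L1, and Pvr (1.73). The 12 tested markers of T and NK cells gave 0 calls by limma, with 1 at an unadjusted p under 0.05. Their summed level was 11.7 to 142 RPM in the tumours, against 3.54 and 3.78 RPM in cortex, where Cd3e, Gzmb, Gzma and Prf1 had no read. The sum of 12 microglia and macrophage markers was 761 to 3968 RPM in the tumours, against 598 and 670.4 RPM in cortex, and 6 of the 12 rose. These sums moved with the class I genes between tumour and cortex, and their part in that difference was not tested.

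The receptor forms were set against mCherry tumours, and the variants against wild-type EGFR, to ask whether the added receptor or its form went with the level of the pathway. No difference between tumour groups passed for any of the 10 genes. In 15 comparisons of 2 tumour groups, 0 of 150 limma tests passed, 5 had an unadjusted p under 0.05, and edgeR and DESeq2 on the recovered reads also gave 0. Over all genes the share called was 0.607% for A289I, 4.91% for A289V, 0.0379% for R108G, 0.0695% for R108K, 0.00632% for T263P and 0% for R222C and EGFR WT against mCherry. Against EGFR WT it was 0.335% for A289I, 13.7% for A289V and 0% for R108G, R108K, R222C and T263P. It was 0% for A289I against A289V and for R108G against R108K. A limma F-test over the 8 tumour groups called 0 of the 10, with 1 at an unadjusted p under 0.05, against 10.3% of all genes. The lowest adjusted p there was 0.171, for B2m, and edgeR and DESeq2 again called 0. In the lists around the pathway the F-test called Cd1d1 (adjusted p = 0.0357) and H2-T10 (adjusted p = 0.0377) among 20 other heavy chains and Psma2 (adjusted p = 0.0124) among 11 other 20S subunits. Among cell markers it called 6 of 10 for neurons, 3 of 8 for myelinating oligodendrocytes, 1 of 6 for oligodendrocyte precursors and 2 of 7 for astrocytes.

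Against mCherry, the gene with the lowest p differed by form, and none passed. B2m was 3629 ± 1155 RPM in R108K (SD, n = 4) and 1931 ± 696 RPM in mCherry (n = 3), a log2 fold change of 0.92 ± 0.37 (SE, limma adjusted p = 0.403). B2m also came first in EGFR WT, at 2743 ± 624 RPM in EGFR WT and 1931 ± 696 RPM in mCherry (n = 3 each), with 0.54 ± 0.39 (adjusted p = 0.9995). Psmb9 came first in A289I (0.78 ± 0.61, adjusted p = 0.703) and in T263P (0.65 ± 0.69, adjusted p = 0.96). Both signs for Psmb9 turned when mCherry library 1 was left out, to -0.15 in A289I and -0.28 in T263P. Tapbp in R108G (0.91 ± 0.54, adjusted p = 0.688) and Nlrc5 in R222C (0.78 ± 0.61, adjusted p = 0.891) were the others with a positive value. Over the alternatives, Tapbp in R108G was 0.0038 to 1.36 and Nlrc5 in R222C 0.10 to 1.26. Psmb8 in A289V was lower (-0.70 ± 0.55, adjusted p = 0.457) and turned to 0.13 without A289V libraries 1 and 2. Medians over the 10 genes were -0.33 in A289V to 0.82 in R108K, against 0.00 over all genes in both. The 7 comparisons share the 3 mCherry tumours.

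Against wild-type EGFR, the lowest adjusted p of all 150 tests was that of B2m in A289V, at 1540 ± 746 RPM in A289V (SD, n = 4) and 2743 ± 624 RPM in EGFR WT (n = 3), a log2 fold change of -0.93 ± 0.37 (SE, limma adjusted p = 0.0908). Without A289V library 4, 3 of the 10 genes passed in that comparison, and with library weights 5 did. For A289I against A289V, H2-K1 was 2625 ± 619 RPM in A289I (n = 5) and 1431 ± 1036 RPM in A289V (n = 4), with 1.09 ± 0.44 (adjusted p = 0.188). Over 21 alternatives this log2 fold change was 0.015 to 1.56. Library weights called all 10 there, and 7 in the F-test. That setting, which gives less weight to libraries far from their group, called 3241 of 15824 genes for A289I against A289V where the unweighted fit called 0. B2m was 2303 ± 669 RPM in R108G (n = 3) and 3629 ± 1155 RPM in R108K (n = 4), with -0.65 ± 0.37 (adjusted p = 0.559). No A289I or R108G tumour shares a range of title numbers with an A289V, R108K or EGFR WT tumour. Receptor form and number range therefore cannot be told apart in comparisons between these groups. A term for the ranges links them only through mCherry library 3.

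A289V had the lowest mean of the 8 tumour groups for all 10 genes. Its libraries 1 and 2 were among the 4 lowest tumours for 9 and 8 genes, and its library 4 among the 4 highest for 3. Without libraries 1 and 2, which had the most neuronal RNA, Psmb8 in A289V stood 0.13 log2 units above mCherry. The 10 genes varied together across tumours, so these are not 10 separate rankings. R108K had the highest mean for 7 genes, and R108G for Tap2, Tapbp and Nlrc5. The groups between them changed places from gene to gene: EGFR WT was the second highest for B2m, and R222C for H2-K1. Ordered by mean for each gene, all 70 pairs of neighbouring tumour groups overlapped in range. Between 56.7% (B2m) and 80.9% (Psmb10) of the variance of log2(RPM + 1) over the 28 tumours lay within groups. The highest tumour exceeded the lowest by 5.36-fold for B2m and by 16.6-fold for Psmb9.

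Single tumours stood low or high in most of the 10 genes at once. A289V library 1 and mCherry library 1 were among the 4 lowest tumours for 9 genes, and A289V library 2 and T263P library 2 for 8. R108K library 3 was among the 4 highest for 9. The summed neuron markers were 7105 and 8976 RPM in A289V libraries 1 and 2, 2464 RPM in mCherry library 1 and 552 RPM in T263P library 2, against a tumour median of 672. The T and NK marker sum was 11.7 to 14.4 RPM in these 4 tumours, against a tumour median of 34.4. It was similar in A289V library 3 (14.3 RPM) and EGFR WT library 3 (14.5 RPM), which were among the 4 lowest for 2 and 0 genes. Whether the share of neuronal or lymphoid RNA had a part in the low class I level of the 4 tumours was not tested.

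Across the 28 tumours Nlrc5 went with most of the other genes of the pathway. The family held 15 relations on log2(RPM + 1), with 100000 permutations each. How many of all genes go with Nlrc5 this closely was not computed, and its part in the level of the pathway was not tested. Psmb10 was closest, with a Pearson r of 0.90 and a Spearman rho of 0.81 (permutation tests, adjusted p = 1.7e-05 and 2.1e-05, from the smallest p that the permutations can give). Tap1, Psmb8 and Psmb9 each had an r of 0.85, with rho of 0.78, 0.70 and 0.75, Tapbp had 0.79 with rho 0.78, H2-K1 0.77 with rho 0.59, Tap2 0.77 with rho 0.71 and B2m 0.64 with rho 0.53. All of these passed by both measures, with an adjusted p of 0.00591 or lower. Without the 2 tumours farthest from the median of Nlrc5, mCherry library 1 and A289V library 1, r was 0.85 for Psmb10, 0.63 for H2-K1 and 0.50 for B2m. H2-D1 had the lowest r among the genes of the pathway, at 0.48 (permutation adjusted p = 0.0111), and its rho of 0.34 missed the threshold (adjusted p = 0.0904). Its r was 0.31 (adjusted p = 0.127) without those 2 tumours and 0.59 (adjusted p = 0.00264) without the 3 libraries with Met above 1000 RPM. Those 3 were EGFR WT libraries 1 (4610 RPM) and 2 (3853 RPM) and mCherry library 2 (6283 RPM).

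The same relations were read within the ranges of title numbers. Psmb10 had an r of 0.91 below 20 (7 tumours), 0.92 from 20 to 37 (12 tumours) and 0.72 above 37 (9 tumours), with permutation adjusted p of 0.0342, 0.00039 and 0.0558. H2-K1 had 0.68, 0.91 and 0.61, and B2m had 0.79, 0.85 and 0.46, and H2-D1 had 0.28, 0.63 and 0.04. These 3 genes passed from 20 to 37 (for H2-D1, adjusted p = 0.0337) but not in the other ranges. Among regulators, Ciita (0.84), the class II transactivator, and Irf1 (0.83) passed over all tumours. Rfx5, a subunit of the X box complex, did not pass (r = 0.10, adjusted p = 0.627). The T cell gene Cd3e passed (r = 0.65, adjusted p = 0.0003) and the microglial receptor Csf1r did not (r = 0.22, adjusted p = 0.276), over the same tumours and by permutation.

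**Figure D4:**
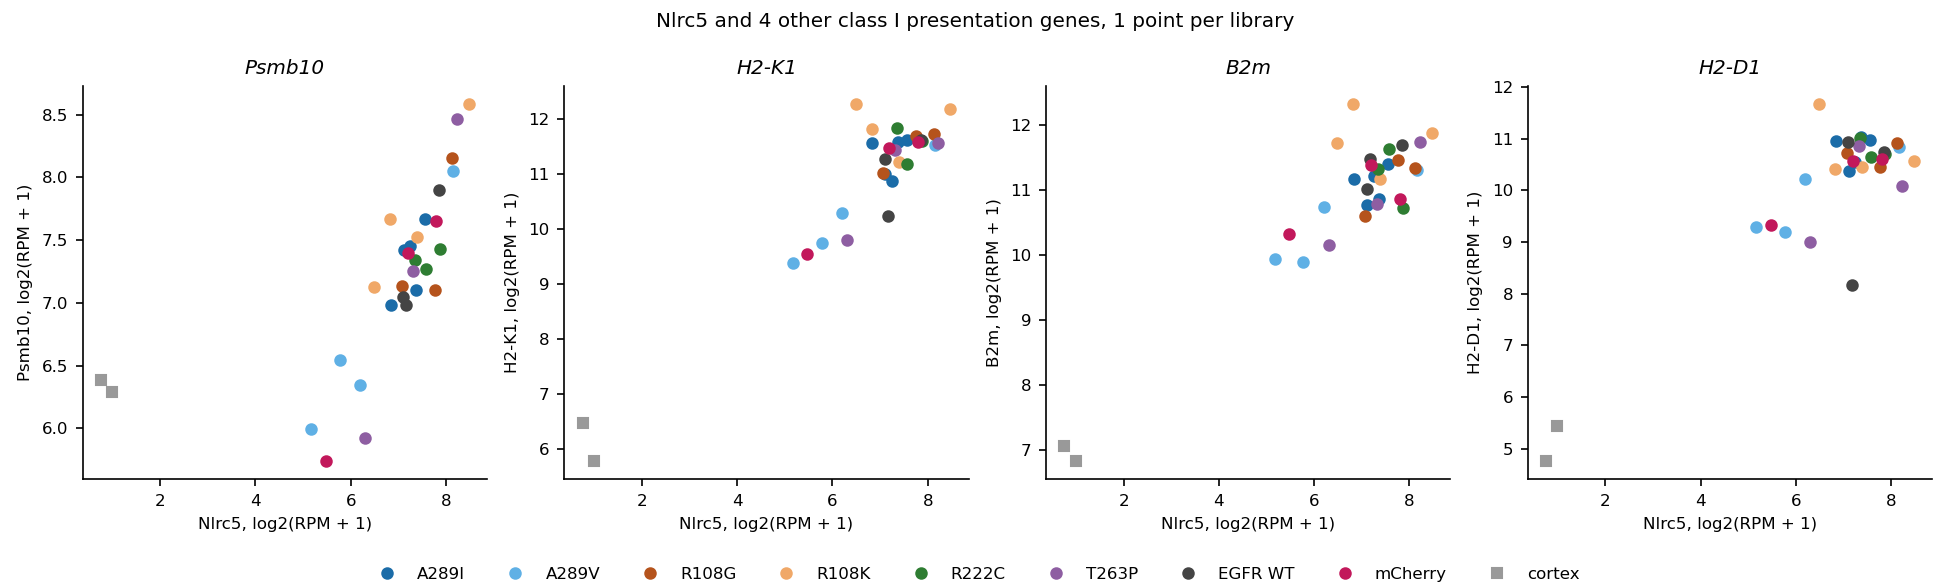
Nlrc5 against Psmb10, H2-K1, B2m and H2-D1, on the log2(RPM + 1) scale, with 1 point per library and cortex as squares. Psmb10 follows Nlrc5 most closely over the 28 tumours (r = 0.90), and in the H2-D1 panel 1 EGFR WT tumour lies far under the others at a middle level of Nlrc5.

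The 10 genes varied together across the tumours, given here as a description without a test, since all values of a tumour share its library. Their 45 pairs had a Pearson r of 0.43 to 0.96, with a median of 0.82. Tap2 and Tapbp (0.96), Tap1 and Psmb9 (0.95) and Psmb8 and Psmb9 (0.95) were closest, and B2m and H2-D1 were farthest apart (0.43). Pairs with B2m had a median of 0.69 and pairs without it 0.85. By the mean of the 10 genes on log2(RPM + 1), the 8 most alike of the 12042 genes that averaged 5 RPM or more were H2-Q1 (0.94), H2-Q4 (0.93), H2-T23 (0.90), H2-Q10 (0.90), Igtp (0.89), H2-M3 (0.89), Il18bp (0.88) and Cfb (0.88), where the median gene had -0.0015. The 5 H2 genes among them may share reads with H2-K1 and H2-D1.

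EGFR WT library 2 broke this pattern within the pathway. Its H2-D1, 287 RPM from 2398 reads (exact Poisson 95% interval 276 to 299, counting error only), was the lowest of all tumours, while its B2m was 2846 RPM and its Nlrc5 143 RPM, both within the range of the other tumours. H2-D1 over H2-K1 per length was 0.212 there, against 0.291 to 0.848 in the other 27 tumours and 0.266 and 0.705 in cortex. Tap1 over B2m was also lowest there, at 0.00779, against 0.0113 in the next tumour. The neighbourhood was examined after these values had been seen, and it is described without a test. The 44 other genes between Tapbp and H2-D1 with a median of at least 10 RPM, no class I or class II genes among them, had a median log2 offset of -0.62 from the tumour median in this library. The next lowest tumour, R108K library 4, was at -0.29. Of these 44 genes, 18 (40.9%) were at their lowest of all 28 tumours, against 5.33% of 9968 autosomal genes. Genes of chromosome 17 before the interval had a median offset of -0.01 and those after it -0.36. In R108K library 4 the offsets were -0.23 before, -0.28 after and -0.26 for the chromosome as a whole.

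**Figure D5:**
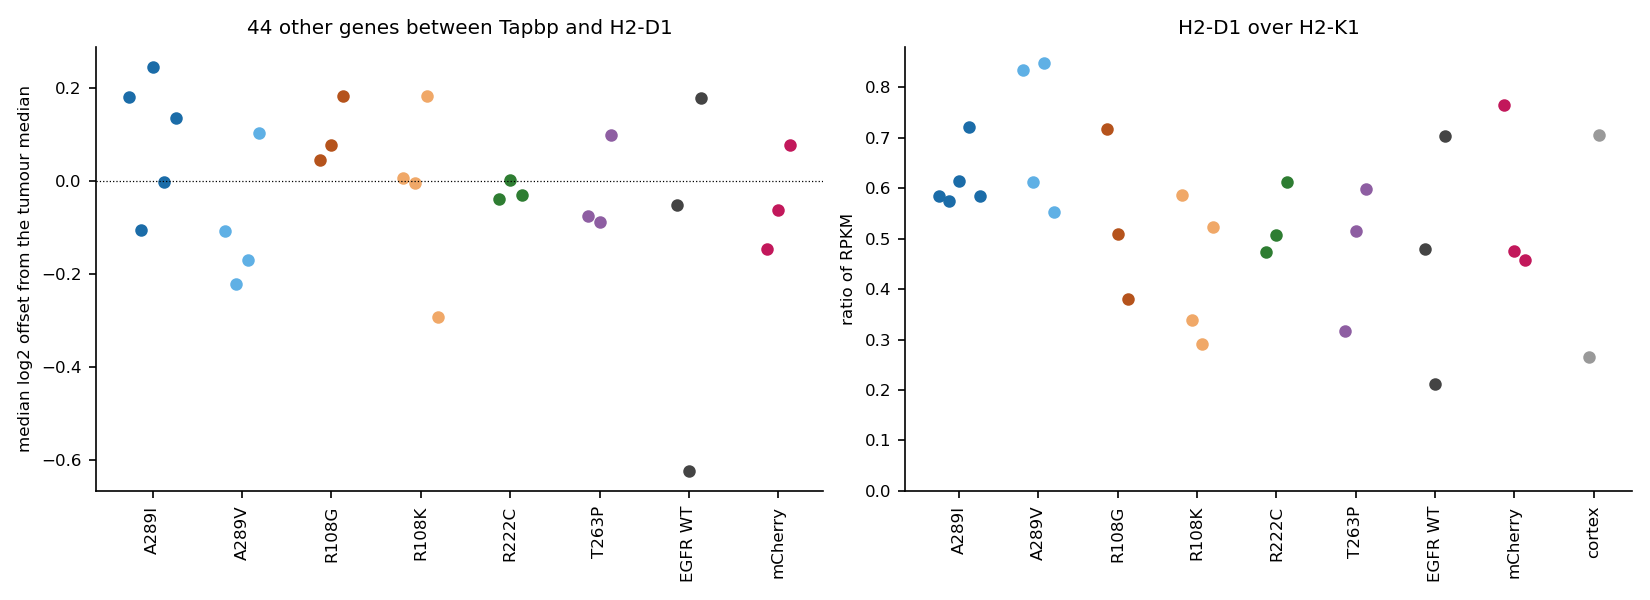
Left, the median log2 offset from the tumour median of 44 other genes between Tapbp and H2-D1, 1 point per tumour. Right, H2-D1 over H2-K1 per transcript length in every library. EGFR WT library 2 is the lowest point in both panels, at -0.62 and 0.212.

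This 1 library, which also had Met above 1000 RPM (3853 RPM), bears on every comparison with EGFR WT. Without it, the log2 fold change of H2-D1 turned to -0.05 in A289I, against 0.84 with it, and to -0.05 in R222C, against 0.84 with it, and neither passed in any alternative. The B2m of this library lay between those of the other 2 EGFR WT tumours.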

How the data were processed

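Bulk polyadenylated RNA of 30 libraries was analysed. The deposited signal is a normalised count per gene and library, which the authors had divided by a size factor per library: undoing it gave whole reads, to 0.05 of a read, for 100% of the values. The tables are named RPM, but library totals were 9.31 to 12.0 times those of RPM, so all values were divided by 10.3, the mean ratio. FastQC, STAR 2.5.0a, mm10 and DESeq2 1.20.0 are named without roles, per the submitters' processing notes. The aligner settings and the strand setting of the counting are not given in the sources used here.

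Genes that reached 1 RPM in 3 or more libraries were fitted with limma 3.58.1 in R 4.3.3 on log2(RPM + 1), as 9 group means over 30 libraries with eBayes trend and robust settings, two-sided. The design had assumed RPM, and the test needed no change. The threshold was an adjusted p of 0.05, in 23 pairs of groups and an F-test. The fit was tested on simulated data. Alternatives were a pseudocount of 0.1, no filter, a filter of 5 RPM, TMM, library weights, only the groups compared, terms for or groups within ranges of title numbers, edgeR 4.0.16 and DESeq2 1.42.0 on recovered reads, each library left out, and 3 libraries with Met above 1000 RPM left out. Leaving out A289V libraries 1 and 2 was added after seeing the data. Correlations used 100000 permutations, or exact enumeration for 7 or 9 tumours.

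The 10 genes and the lists were chosen with earlier results of these data known. By rule, all 10 genes were named, with up to 4 called genes of lowest p per list and the gene of lowest p in each form against mCherry. Positions came from GENCODE M21 and promoters from RefSeq (GRCm38.p6). Of the relations with Nlrc5, 1 is not reported here, although p-values were adjusted over all 15. Sequences of proteins were not used here. Figures were drawn with matplotlib 3.10.9, and other steps used scipy 1.17.1, pandas 2.3.3 and numpy 2.4.6 under Python 3.11.15.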

Additional observations from a re-analysis of the deposited data

Results flagged for a closer look

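In groups of 4 or 5 tumours, 30 sets of values were searched for a library set apart from the rest by Dixon's 95% criterion, which chance meets in about 1 group in 20. It was met 5 times, each time by the highest library of a group. The search used RPM, not the log2(RPM + 1) scale of the limma tests, and was not repeated on that scale. A289V library 4 was set apart, above the other 3 A289V tumours, in Tapbp (282 RPM), Nlrc5 (284 RPM) and Psmb10 (264 RPM). R108K library 1 was set apart in H2-D1 at 3270.4 RPM, against 1374 to 1518 RPM in the other R108K tumours. A289I library 2 was set apart in Tap2 at 245 RPM, against 146 to 167 RPM in the other A289I tumours.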

How the results depend on the processing

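Of the 71 calls against cortex, 56 passed in every alternative run. Counts of genes called stayed within 1.5 times in all but 8 of 460 alternatives. With a term for 2 or 3 ranges of title numbers, 5 genes were called in A289I and 5 in R108G over cortex, against 9. Over all genes these terms called 513 and 277 in A289I, against 6327, and 423 and 339 in R108G, against 5871. Library weights gave 5 in A289V against EGFR WT, 10 in A289I against A289V and 7 in the F-test, against 0 in each, while over all genes it called 4448 against 2160, 3241 against 0 and 5876 against 1633. With single libraries left out, A289V against EGFR WT gave 0 to 3, the 3 without A289V replicate 4. Leaving out a cortex sample leaves 1, which is then assumed to vary like the other groups. The causes were not tested.

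Reversed signs concerned uncalled values. Psmb10 over cortex turned to -0.10 in A289I with a term for 2 ranges, and was -0.045 to 0.64 in A289V with single libraries left out. H2-D1 against EGFR WT was -0.049 to 1.33 in A289I and -0.045 to 1.33 in R222C with single libraries left out, and -0.15 in A289I and -0.14 in R222C without the high Met libraries, also -0.14 in R222C within numbers 20 to 37. Leaving out the high Met libraries, or keeping numbers 20 to 37, leaves only library 3 of EGFR WT. Psmb9 against mCherry was -0.15 to 1.44 in A289I and -0.28 to 1.44 in T263P with single libraries left out, and -0.55 in A289I with either term for ranges and within numbers above 37. Psmb8 in A289V against mCherry was 0.13 without A289V libraries 1 and 2, and Tapbp in R108G against EGFR WT was -0.33 and -0.29 with the terms for 2 and 3 ranges.

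Of 525 alternatives to the correlations with Nlrc5, 505 kept sign and side of the threshold. Below 20 (7 tumours), r no longer passed for B2m (0.79), H2-K1 (0.68), H2-D1 (0.28), Tap1 (0.72), Tap2 (0.70), Tapbp (0.69), Psmb8 (0.78), Psmb9 (0.79) and Cd3e (0.74), and it reversed for Rfx5 (-0.65) and Csf1r (-0.16). Above 37 (9 tumours) it no longer passed for B2m (0.46), H2-K1 (0.61), H2-D1 (0.045), Psmb10 (0.72), Irf1 (0.72) and Cd3e (0.56). For H2-D1 it also missed the threshold with group means removed (0.43) and without the 2 farthest tumours (0.31). These ranges hold fewer tumours.

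No paired analysis was possible because the labels give no replicate number shared between groups.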
